A study of Mus musculus with 11 samples.

Results

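The 9 genes described here take up, cleave or carry carotenoids and retinoids, or answer to retinoic acid: Bco2, Bco1, Isx, Scarb1, Rbp2, Rdh11, Dhrs3, Aldh1a1 and Rarb. They were picked by symbol from the 22243 genes of the deposited table, with the genotype results of these mice already known. In that contrast the authors' deposited table gave Bco2 a q-value of 0.0261 and a log2 ratio of 1.49. Differences between knockout and wild-type mice in the 9 genes are therefore given as values. Where a test outcome for Bco2 is stated, it is not read as support.

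Polyadenylated RNA was sequenced from the whole wall of the distal colon. The wild-type (WT) group had 6 mice and the Nrg4-/- knockout (KO) group 5; Nrg4 encodes neuregulin-4, a growth factor that binds ErbB4. The mice were 11 to 12 weeks old, and the genotypes had been mixed in cages at 9 weeks. There were 2 mice of each genotype in cage A (WT-5, WT-7, KO-1, KO-8) and in cage B (WT-2, WT-11, KO-4, KO-9), while WT-6, WT-10 and KO-3 lived in cage C. Both sexes were used; which mouse was of which sex, the strain and the design of the allele were not stated in the labels. Values are in TPM, transcript abundance per unit length relative to the whole library.

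Dietary carotenoids enter enterocytes through the scavenger receptor encoded by Scarb1. BCO1 splits beta-carotene at its centre into retinal, whereas BCO2 cleaves carotenoids off centre and acts on a wider range of them. Retinal and retinol are carried by binding proteins and interconverted by short-chain dehydrogenases, and part of the retinal is oxidised to retinoic acid, the ligand of the nuclear receptors RAR. In the small intestine the homeobox factor ISX, itself induced by retinoic acid, represses Bco1 and Scarb1.

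Markers of the labelled tissue were present in all libraries. The 10 colonocyte markers (such as Slc26a3 and Car4) summed to 4018 to 7905 TPM in WT and 4306 to 6268 TPM in KO. Among them, Ceacam1 was listed at 0 in all 11 mice and Slc9a3 at 0 in 10 of 11. The 4 Hox genes of distal position summed to 285 to 380 TPM in WT and 288 to 354 TPM in KO. The 10 small intestine markers summed to 53.1 to 106 TPM in WT and 53.1 to 59.7 TPM in KO. Most of that sum was Fabp6 (means of 41.4 TPM in WT, 25.5 TPM in KO) and Fabp2 (19.4 and 20.7 TPM). Lyz1, Reg3g and Apoa1 had means between 1.39 and 5.95 TPM, and Alpi, Sis, Lct, Defa24 and Apoa4 had means below 1 TPM in both genotypes. Nrg4 was listed at 0 in all 11 mice, so its level is no check of the genotype labels. Mitochondrially encoded genes took from 19.0% (KO-1) to 42.9% (KO-3) of the summed TPM. Litters are not named in the labels, so the spread within a group is that between these mice.

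RefSeq promoters (GRCm38.p6) were found for 8 of the 9 genes, all but Scarb1. Stretches before the start sites of the 2 cleavage enzymes and of Rbp2, the most abundant of the 9 genes, are shown because these genes carry the main values below, together with 30 bases of a 5′ UTR exon of Rarb (GENCODE) that hold its retinoic acid response element. Capitals mark the hexamer AGGTCA with its variant AGTTCA, the hexamer GGGTCA with its variant GGTTCA, half-sites to which retinoic acid receptors and related nuclear receptors bind, and TATAAA, each on either strand.
Bco2, chr9:50555182-50555388, minus strand: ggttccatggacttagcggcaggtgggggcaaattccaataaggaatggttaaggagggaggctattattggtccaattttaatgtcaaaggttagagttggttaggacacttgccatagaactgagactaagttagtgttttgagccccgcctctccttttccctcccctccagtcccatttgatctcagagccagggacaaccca
Bco1, chr8:117095615-117095853, plus strand: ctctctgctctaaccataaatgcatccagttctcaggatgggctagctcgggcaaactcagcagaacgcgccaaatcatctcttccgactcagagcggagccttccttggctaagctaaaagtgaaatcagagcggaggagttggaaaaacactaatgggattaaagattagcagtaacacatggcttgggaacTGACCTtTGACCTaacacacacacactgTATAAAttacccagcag
Rbp2, chr9:98490287-98490536, plus strand: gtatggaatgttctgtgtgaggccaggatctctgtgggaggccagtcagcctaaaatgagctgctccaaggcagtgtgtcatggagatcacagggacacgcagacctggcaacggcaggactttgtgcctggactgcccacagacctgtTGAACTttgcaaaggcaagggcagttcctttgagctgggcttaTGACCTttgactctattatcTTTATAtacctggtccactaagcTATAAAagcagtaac
Rarb, chr14:16575506-16575535, minus strand: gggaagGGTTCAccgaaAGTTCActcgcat

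In the 250 bases before the start, Bco1 had 2 half-sites in the same direction with 1 base between them, the spacing called DR1, beginning 56 bases before the start. A DR1 of these hexamers was found in 0.164% of 32851 RefSeq promoters of that length. Rarb had a pair spaced by 5 bases (DR5), found in 0.0883% of the promoters; both pairs are made of half-sites marked above. The Bco2 stretch held none of these half-sites, whereas 38.6% of all promoters held at least 1, and none was found before the second RefSeq start of Bco2 either. TATAAA was found before the starts of Bco1 and Rbp2 and before the second start of Bco2, against 12.4% of all promoters. The Bco2 stretch also lies inside the Il18 gene, in no annotated exon.

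Bco2, the off-centre carotenoid oxygenase, was the gene of the list with the widest gap between genotypes. It spans chromosome 9 from 50533087 to 50555181 on the minus strand (mm10), and its listed transcript has 12 exons. In WT it stood at 5.91 TPM in WT-2, 7.68 in WT-5, 7.91 in WT-6, 9.41 in WT-7, 4.22 in WT-10 and 5.81 in WT-11. In KO it stood at 15.0 TPM in KO-1, 14.4 in KO-3, 22.9 in KO-4, 20.3 in KO-8 and 23.0 in KO-9. The lowest KO value was above the highest WT value, so the groups did not overlap. The means were 6.82 ± 1.86 TPM (SD, n = 6) and 19.1 ± 4.18 TPM (SD, n = 5), a ratio of 2.80, and the log2 difference fitted with cage as a term was 1.39 ± 0.20 (standard error). The ratio of KO to WT means ranged from 2.07 among cage A mice through 2.37 in cage C to 3.92 in cage B. Bco2 was the 1 gene of the 7 tested whose groups did not overlap, a pattern of 0.223% of all 10756 genes tested. It was not among the 4 genes (0.0372%) that passed limma's test at a false discovery rate (FDR) of 0.05 in the main fit. In 2 of 21 alternative settings, no cage term and WT-6 left out, it did pass. Since this contrast chose the list, nothing is read from these counts, from whether Bco2 passed, or from the authors' q-value. Of the marker genes of other cell types, none passed for genotype. The summed endothelial markers were 1.35 to 5.22 TPM in WT and 3.84 to 6.69 TPM in KO. Of these 4 markers Emcn alone did not overlap, with at most 1.81 TPM in WT and at least 1.86 TPM in KO. Fitted values were above 0 for 3 of 3 endothelial, 5 of 5 smooth muscle and 6 of 7 fibroblast markers tested. They were below 0 for 4 of 5 small intestine and 5 of 8 colonocyte markers. Goblet markers were above 0 for 4 of 6, neuron and glia markers for 2 of 3, and the 1 liver marker tested was above 0. Macrophage and dendritic cell (2 of 4), adipocyte (1 of 2) and distal position markers (2 of 4) were split evenly. Of all genes tested, 46.8% had fitted values above 0. The part of cell types in the Bco2 values was not tested.

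Bco1, the central cleavage enzyme, was the less abundant of the pair. It had 2.29, 2.28, 2.07, 2.20, 2.62 and 2.44 TPM in WT-2, WT-5, WT-6, WT-7, WT-10 and WT-11, and 1.58, 1.51, 1.62, 1.81 and 2.70 TPM in KO-1, KO-3, KO-4, KO-8 and KO-9. In 4 of the 5 KO mice it was below every WT mouse, while KO-9 was above them all, so the groups overlapped. The fitted log2 difference was -0.30 ± 0.16, with means of 2.32 ± 0.191 TPM (WT) and 1.84 ± 0.492 TPM (KO). Per mouse, Bco2 exceeded Bco1 1.61-fold to 4.28-fold in WT and 8.53-fold to 14.1-fold in KO.

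**Figure D1:**
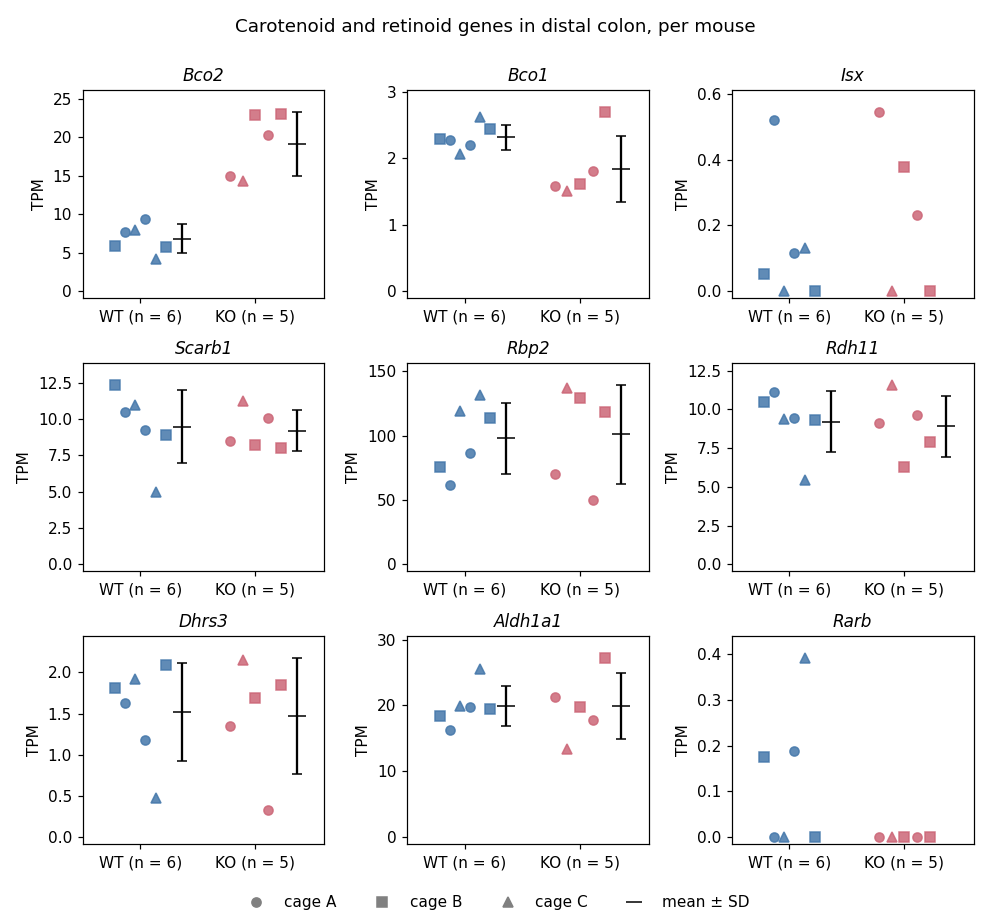
Level of each of the 9 genes in TPM (linear axes, a scale for each gene) in 6 WT and 5 KO mice, with the marker shape giving the cage; bars give the mean and SD, left out for Isx and Rarb, which were at 0 in several mice. Bco2 lay between 14.4 and 23.0 TPM in KO and between 4.22 and 9.41 TPM in WT, and for the other 8 genes the groups overlapped.

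The uptake gene Scarb1 was expressed, and the regulator gene Isx was close to the floor. Scarb1, the receptor for carotenoid and lipoprotein uptake, had 12.3, 10.5, 10.9, 9.27, 5.00 and 8.87 TPM in WT-2, WT-5, WT-6, WT-7, WT-10 and WT-11, and 8.50, 11.3, 8.21, 10.04 and 8.02 TPM in KO-1, KO-3, KO-4, KO-8 and KO-9. WT-10 was the lowest mouse and the genotypes overlapped, with a fitted log2 difference of -0.02 ± 0.21. Isx, the repressor of Bco1 and Scarb1 in small intestine, was listed at 0 in 4 mice (WT-6, WT-11, KO-3 and KO-9). Its highest values were 0.545 TPM in KO-1 and 0.519 TPM in WT-5, and it never reached 1 TPM, so it was not tested. The planned correlations of Isx with Bco1, Scarb1, Rbp2 and Bco2 were not run for the same reason. With polyadenylated RNA of whole tissue, fewer cells of a type and less RNA per cell cannot be told apart.

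Rbp2, which encodes the cellular retinol-binding protein of enterocytes, was the most abundant gene of the 9. It had 75.3 TPM in WT-2, 61.5 in WT-5, 119 in WT-6, 86.9 in WT-7, 132 in WT-10 and 114 in WT-11, and 70.4 TPM in KO-1, 137 in KO-3, 130 in KO-4, 50.3 in KO-8 and 118 in KO-9. Each genotype held low and high mice, and the fitted log2 difference was 0.08 ± 0.17. The low mice of both genotypes were those of cage A, apart from WT-2 in cage B. The gene was on average above 93.6% of the genes tested.

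The table lists 3 principal transcripts of Rbp2. ENSMUST00000035029.2, which starts at 98490537 on chromosome 9, just after the stretch shown above, took 53.7% of the gene's TPM in WT and 51.5% in KO. ENSMUST00000187905.6, annotated from 98486166, took 42.0% and 45.4%. The third, ENSMUST00000189446.6, took 4.21% and 3.06%. These transcripts overlap along most of their length, so the split rests on how the estimates assigned shared reads.

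Downstream of retinol, 3 of the remaining 4 genes reached the level needed for a test. Rdh11, a retinal reductase of the short-chain dehydrogenase family, ranged in WT from 5.45 TPM (WT-10) through a median of 9.42 to 11.1 TPM (WT-5), and had 9.15, 11.6, 6.31, 9.67 and 7.87 TPM in KO-1, KO-3, KO-4, KO-8 and KO-9. Dhrs3, which reduces retinal to retinol and is induced by retinoic acid, ranged from 0.479 TPM (WT-10) to 2.09 TPM (WT-11) in WT and from 0.329 TPM (KO-8) to 2.15 TPM (KO-3) in KO. Aldh1a1, a retinal dehydrogenase that makes retinoic acid, had 18.4, 16.3, 19.8, 19.8, 25.6 and 19.4 TPM in WT-2, WT-5, WT-6, WT-7, WT-10 and WT-11, and 21.3, 13.3, 19.8, 17.8 and 27.2 TPM in KO-1, KO-3, KO-4, KO-8 and KO-9. For all of these genes the genotypes overlapped, and the fitted log2 differences were -0.05 ± 0.19 for Rdh11, -0.07 ± 0.33 for Dhrs3 and -0.03 ± 0.17 for Aldh1a1. Rarb, the receptor gene that carries the DR5 element, had 0.391 TPM in WT-10, 0.188 in WT-7 and 0.176 in WT-2, was listed at 0 in all 5 KO mice, WT-5 and WT-6, and was at most 1.86e-09 TPM in WT-11. At this level, which no fold change can be given for, the genotypes overlapped at 0.

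**Figure D2:**
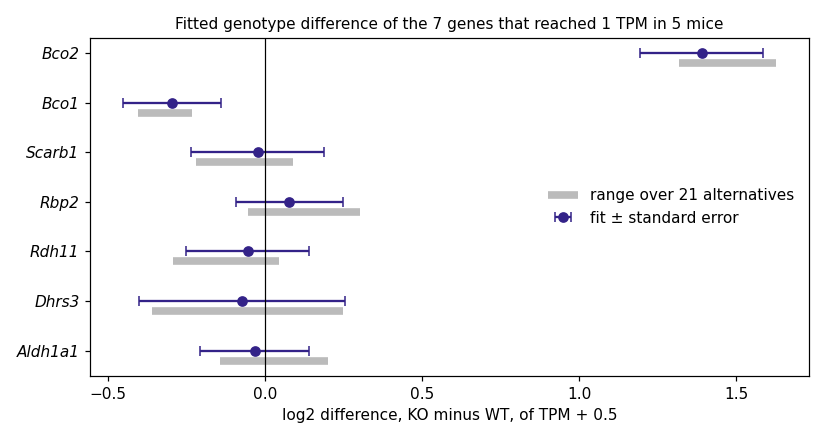
Fitted log2 difference (KO minus WT, log2 of TPM + 0.5, cage as a term) of the 7 genes tested, with its standard error, and the range of the same value over 21 alternative settings. Bco2 stays between 1.32 and 1.63, Bco1 between -0.40 and -0.23, and the other 5 ranges include 0.

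Of the 7 genes tested, 2 had a fitted value above 0 and 5 below it, with a median of -0.03; over all 10756 genes the median was -0.01. These counts describe a list chosen on the same contrast.

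The order of levels within WT mice was not used to choose the genes. The pairs compared were neighbours in the order seen in these same mice, so their p-values describe that order only. In WT it ran from Rbp2 over Aldh1a1, Scarb1, Rdh11, Bco2, Bco1 and Dhrs3 to Isx and Rarb. Rbp2 was above Aldh1a1, Aldh1a1 above Scarb1, Rdh11 above Bco2, Bco2 above Bco1, Bco1 above Dhrs3 and Dhrs3 above Isx in 6 of 6 WT mice each (two-sided exact sign-flip permutation p = 0.03125, the smallest that 6 mice allow, adjusted p = 0.0417 over 8 pairs). Scarb1 and Rdh11 were not separable (exact permutation p = 0.719), nor were Isx and Rarb (exact permutation p = 1). In KO, Bco2 at 19.1 ± 4.18 TPM stood next to Aldh1a1 at 19.9 ± 5.07 TPM, with Aldh1a1 the higher in 2 of 5 mice, and above Scarb1 in 5 of 5. With 5 mice the smallest exact p is 0.0625, so no KO pair could pass. The place of Bco2 in KO also carries the genotype gap that was known when the genes were chosen.

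Whether the genes differed between cages was tested with limma's F test, adjusted by the Benjamini-Hochberg method over all genes. None of the 7 genes passed (0 of 7, against 0.00% of all genes), and 1 of 7, Rbp2, had an unadjusted p below 0.05, against 12.1% of all genes. Rbp2 had 67.3 ± 15.5 TPM in cage A (SD, n = 4), 109 ± 23.6 TPM in cage B (SD, n = 4) and 129 ± 8.99 TPM in cage C (SD, n = 3) (FDR 0.263 by limma). All cage A mice were below all cage C mice, and cages A and B overlapped through WT-2. The summed colonocyte markers ran from 4046 to 4656 TPM in cage A, from 4018 to 6268 in cage B and from 4659 to 7905 in cage C, and their part in the Rbp2 values was not tested. The Y-linked gene Eif2s3y was at 21.5 TPM or more in cage A and at 0.0523 TPM or less in the other cages. A difference between cage A and the other cages therefore cannot be told apart from one of sex, for Rbp2 or any other gene. The same holds where the gap between KO and WT differs between cage A and the others.

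Whether KO and WT differed by another amount from cage to cage was tested in the same way. None of the 7 genes passed limma's F test on the interaction (0 of 7, against 0.0186% of all genes), and 1 of 7, Aldh1a1, had an unadjusted p below 0.05, against 3.97% of all genes. Aldh1a1 had KO means of 19.6, 23.5 and 13.3 TPM in cages A, B and C beside WT means of 18.1, 18.9 and 22.7 TPM (limma FDR 1.00). The KO arm of cage C is the single mouse KO-3, which also had the highest mitochondrial share. For Bco2 the KO-minus-WT log2 values by cage were 1.00 (A), 1.88 (B) and 1.24 (C) (limma FDR 1.00 for the interaction), so the KO mean was higher in each cage.

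Scarb1 and Rdh11 varied together from mouse to mouse. Across the 11 mice, on log2(TPM + 0.5), Pearson's r was 0.883 (two-sided permutation p = 0.00017, adjusted p = 0.00357 over the 21 pairs of tested genes) and Spearman's rho 0.90 (permutation p = 0.00032, adjusted p = 0.00672). Without WT-2 and WT-10, the mice farthest from the median of Scarb1, r was 0.786, and within the 7 mice of cages B and C it was 0.901. Aldh1a1 ran the other way. Its r with Rdh11 was -0.737 (permutation p = 0.0103, adjusted p = 0.109) with a rho of -0.836 (permutation p = 0.00237, adjusted p = 0.0249), r was -0.956 without WT-10 and KO-4 and -0.723 in cages B and C. With Scarb1 its r was -0.72 (permutation p = 0.0156, adjusted p = 0.109) and its rho -0.727 (permutation p = 0.0148, adjusted p = 0.103), with r of -0.786 without WT-2 and WT-10 and -0.699 in cages B and C. Both pairs thus missed 0.05 by Pearson's r after adjustment, and Rdh11 with Aldh1a1 passed by rho. WT-10 had the lowest Scarb1 and Rdh11 of all mice and the highest Aldh1a1 of the WT mice. Without WT-10 and KO-3, r was 0.719 for Scarb1 with Rdh11, -0.631 for Scarb1 with Aldh1a1 and -0.542 for Rdh11 with Aldh1a1. After removal of the cage and genotype means, r was 0.91 for Scarb1 with Rdh11, -0.76 for Rdh11 with Aldh1a1 and -0.77 for Scarb1 with Aldh1a1. No pair with Bco2 passed; these pooled values also carry its genotype gap, and without cage and genotype means its r with Bco1 was 0.04. Cage A alone, with 4 mice, is too small for a value. These pairs were chosen after the values were seen.

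**Figure D3:**
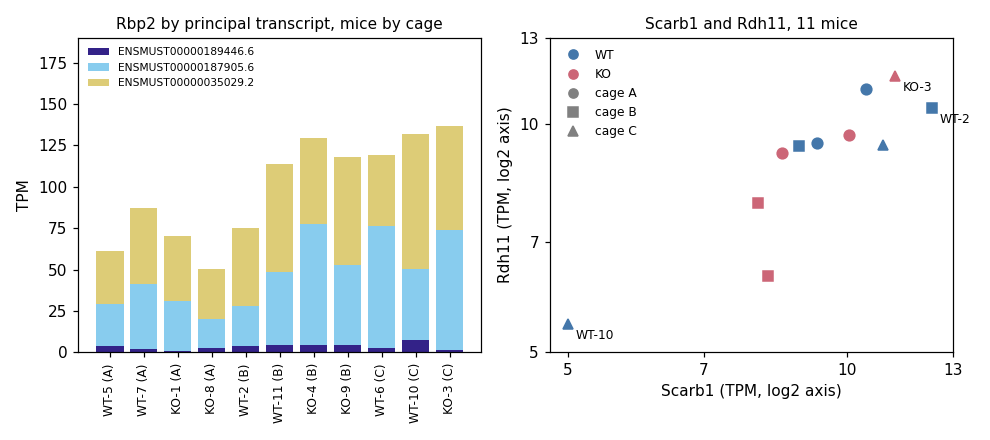
Left, TPM of the 3 principal transcripts of Rbp2 stacked for each mouse, ordered by cage (letter in brackets): the 4 mice of cage A sum to 50.3 to 86.9 TPM and the 3 of cage C to 119 to 137 TPM. Right, Rdh11 against Scarb1 in TPM on log2 axes for 11 mice (r = 0.883), with WT-10 lowest on both.

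The genes most like each of the 7 were sought in what was left after cage and genotype, over 11 mice. The 2 with the highest Pearson's r among tested genes were taken, with unnamed gene models left out. For Bco2 they were Pex5, a peroxisomal import receptor (r = 0.955), and Slc25a44, a mitochondrial carrier (r = 0.950). They were Eri3 (r = 0.980) and Uck2 (r = 0.975) for Scarb1, Oxr1 (r = 0.975) and Auts2 (r = 0.960) for Rdh11, and Rnasek (r = 0.980) and Prmt2 (r = 0.957) for Aldh1a1. For Bco1 they were the histone gene Hist2h2aa2 (r = 0.968), one of several near-identical copies, and Zrsr2 (r = 0.942), for Rbp2 Epb41l4b (r = 0.965) and Ttc22 (r = 0.959), and for Dhrs3 Harbi1 (r = 0.981) and Chic1 (r = 0.963). As the highest among all named genes tested, these values describe likeness only.

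The neighbours of Bco2 on chromosome 9, which lies 4.67 Mb from Nrg4, were then compared. Il18, the gene of an epithelial cytokine, overlaps Bco2 by 355 bases on the opposite strand. Its means were 149 ± 25.9 TPM (WT) and 144 ± 34.1 TPM (KO) (log2 difference -0.13 ± 0.16). The library kit was stranded, but no source used here says whether the estimates used strand, so reads of the overlap cannot be assigned with certainty. Of 27 other listed genes within 1 Mb, 18 were tested and 1, the unnamed model Gm32742, passed (log2 difference 1.21 ± 0.15, limma FDR 0.0328). Gm32742 had at most 0.920 TPM in WT and at least 1.88 TPM in KO. It reached 1 TPM in the 5 mice needed for a test through KO alone, so nothing is read from its pass. No neighbour passed with any single mouse left out. With a KO mouse left out, Gm32742 was no longer tested, so it could not be called there. At an unadjusted p below 0.05 there were 5 of the 18 tested neighbours (27.8%), Gm32742 among them, against 3.10% of all genes. Beside Gm32742 they were Colca2 (1.18 ± 0.22) and the small heat-shock protein gene Hspb2 (1.32 ± 0.42), with positive values, and Sdhd, a subunit of succinate dehydrogenase (-0.23 ± 0.10), and 1110032A03Rik (-0.64 ± 0.20), with negative values (limma FDR 0.461 for Colca2 and 1.00 for the other 3). Pts, the nearest gene on the other side, averaged 41.5 ± 4.58 TPM (WT) and 46.4 ± 7.18 TPM (KO) (0.15 ± 0.10). Bco2 and these neighbours lie on the chromosome of Nrg4. For them, a difference from loss of Nrg4 cannot be told apart from one in DNA inherited along with the allele. Neither was tested.

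**Figure D4:**
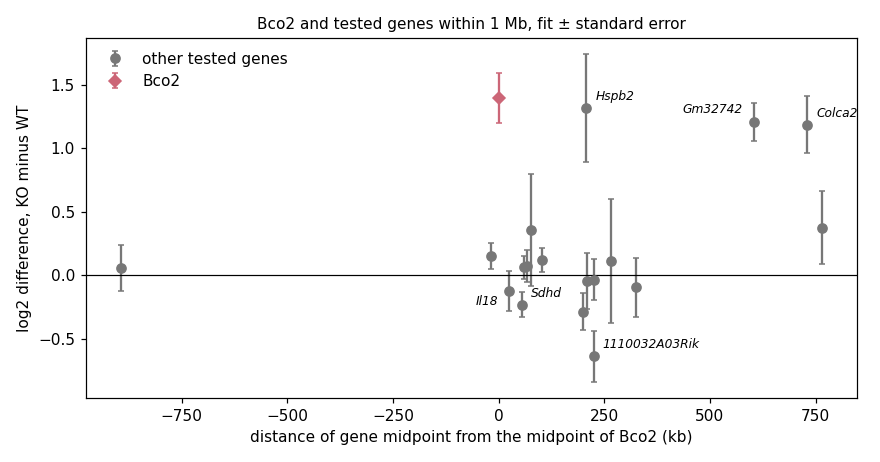
Log2 difference (KO minus WT) with its standard error for Bco2 and the 18 tested genes within 1 Mb, against the distance between gene midpoints in kb. Bco2 (1.39), Hspb2 (1.32), Gm32742 (1.21) and Colca2 (1.18) stand above the other genes. Those run from -0.64 (1110032A03Rik) to 0.37 (1810046K07Rik), with Il18 (-0.13) next to Bco2.

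A wider list of 81 genes of carotenoid and retinoid handling, none of them among the 9, was compared for KO against WT. Of these, 52 were tested and none passed limma's test (0 of 52, with 0 at an unadjusted p below 0.05, against 3.10% of all genes), 25 with values above 0 and 27 below, and a median log2 difference of -0.01. The smallest limma p of the list, 0.0577, was that of Rxrb, whose lowest KO value was close to 0 TPM.

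Among uptake and transport genes, 10 of 13 were tested, 6 above 0 and 4 below. Stra6, the membrane receptor for retinol-binding protein, lies 2.74 Mb from Nrg4 with means of 1.79 ± 1.16 TPM (WT) and 0.937 ± 0.417 TPM (KO) (-0.66 ± 0.31, limma FDR 1.00). Lrp1, an uptake receptor for lipoprotein remnants, stood at 0.22 ± 0.20. All 3 binding proteins tested overlapped between genotypes, with Fabp5 at -0.25 ± 0.22 and Rbp7 at 0.09 ± 0.40. Crabp1, the cytosolic retinoic acid binder 0.447 Mb from Nrg4, was not tested; its means were 1.24 ± 0.879 TPM (WT) and 0.832 ± 0.164 TPM (KO). Of the ester-forming and ester-cleaving enzymes 5 of 8 were tested, with the acyltransferases Dgat1 at -0.32 ± 0.21 and Dgat2 at -0.18 ± 0.17.

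The largest set, retinol and retinal dehydrogenases and reductases, had 15 of 22 tested, 5 above 0 and 10 below. Rdh10, which oxidises retinol to retinal, averaged 7.40 ± 1.19 TPM (WT) and 5.75 ± 2.15 TPM (KO), a log2 difference of -0.41 ± 0.19. Dhrs4 averaged 24.7 ± 2.50 TPM and 20.7 ± 3.44 TPM (-0.26 ± 0.13), and limma's FDR was 1.00 for both. The retinoic acid synthesis genes Aldh1a3 (-0.21 ± 0.23) and Aldh1a7 (-0.18 ± 0.20) and Cyp2s1, the 1 tested gene of 4 for retinoic acid breakdown (-0.03 ± 0.11), also overlapped between genotypes. The 3 Cyp26 genes, the main retinoic acid hydroxylases, had means below 0.05 TPM in both genotypes. Of the receptors and cofactors 8 of 12 were tested, split 4 to 4, with Rxrb at -0.83 ± 0.39 and the corepressor Ncor1 at 0.35 ± 0.23. The lowest KO value of Rxrb was 1.95e-05 TPM, beside medians of 2.26 TPM (KO) and 2.61 TPM (WT). The retinoic acid targets Tgm2 and Egr1 stood at 0.14 ± 0.18 and 0.30 ± 1.13; for Egr1 the mean TPM went the other way (61.2 ± 143 in WT, 18.7 ± 31.5 in KO). The carotenoid-binding genes Stard3 and Gstp1 were at -0.00 ± 0.11 and 0.04 ± 0.12. All 4 regulators of intestinal carotenoid genes had values above 0, none past the threshold, among them the homeobox gene Cdx2 (0.43 ± 0.23) and Hnf4a (0.38 ± 0.74).

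Over cages, 0 of the 52 genes passed limma's F test and 5 had an unadjusted p below 0.05 (12.1% of all genes did), the smallest that of Cdx2 (FDR 0.319). For the interaction 0 passed and 4 had an unadjusted p below 0.05 (3.97% of all genes did), the smallest that of Rxrb (FDR 0.663).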

How the data were processed

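TPM per principal transcript (APPRIS class) and mouse was deposited by the authors; CASAVA, kallisto and sleuth with mm10 are named, without versions, in the submitters' processing notes. Depth in reads is unknown, since TPM keeps none. The deposited q-value and log2 ratio, per the file headers, are the authors' own; their natural log means, test scores and variance columns were deposited too and not used here. Of 29213 rows, 405 repeated a transcript and were dropped, and TPM was summed per gene. The 10756 of 22243 genes that reached 1 TPM in 5 or more mice were tested with limma 3.58.1 (R 4.3.3) on log2(TPM + 0.5) with a mean-variance trend, a model of genotype plus cage, and Benjamini-Hochberg adjustment over every gene tested. Fold changes on this scale understate those of low genes. The code was tested on simulated data. The summed TPM per mouse was 558446 to 770986, as other transcripts are left out. Coordinates are from GENCODE M21 (mm10). The genes and lists were chosen with earlier results of these data known. Named genes follow a rule: the 9 genes, pathway genes called or with the 2 smallest p of each role, neighbours of Bco2 with an unadjusted p below 0.05, and the 2 genes most like each tested gene (unnamed models were left out of these last genes alone); Pts, Il18, Crabp1, the Cyp26 genes and Eif2s3y were added after their values were seen.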

Additional observations from a re-analysis of the deposited data

Results flagged for a closer look

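In 3 of 18 groups examined (each of the 9 genes in WT and in KO), a mouse lay apart from the rest of its group by a gap test that flags about 1 in 20 groups by chance. Bco1 was at 2.70 TPM in KO-9, with the next KO mouse at 1.81 TPM. Isx was at 0.519 TPM in WT-5, with the next WT mouse at 0.132 TPM. Rdh11 was at 5.45 TPM in WT-10, with the next WT mouse at 9.35 TPM.

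For 3 genes the KO mice stood wholly on opposite sides of the WT mice in cages B and C. The log2 difference (KO minus WT) of Scarb1 was 0.57 in cage C and -0.35 in cage B, that of Rdh11 0.66 and -0.46, and that of Aldh1a1 -0.73 and 0.29. The difference between these 2 cages alone was not tested; in limma's interaction test over all cages none of the 3 genes passed. The KO arm of cage C is KO-3 alone, and its WT arm holds WT-10. With so few mice in each arm, full separation is easily reached. The share of all genes with this pattern was not counted, so nothing is read from the number of genes. The 3 genes also varied together after cage and genotype were removed (r of 0.91, -0.76 and -0.77 for their pairs), so they are not separate observations.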

How the results depend on the processing

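Under 21 alternatives (pseudocounts of 1 and 0.1, no filter, no cage term, median-of-ratios scaling, nuclear genes alone, no mean-variance trend, the most abundant transcript, each mouse or cage A or C left out) the log2 difference of Bco2 was 1.32 to 1.63 and that of Bco1 -0.40 to -0.23; those of the other 5 tested genes took both signs. No member passed the cage or interaction test in any of 20 alternatives. No gene of the wider list was called in any alternative. Over all genes, 4 were called for genotype, 5 with no cage term, 2 with no filter, 1 without cage A, 1 without cage C and 2 to 4 with a mouse left out. Within 1 Mb of Bco2, 1 (Gm32742) was called, and 0 with no filter, without cage A, without cage C or with any mouse left out (range 0 to 0). Gm32742 reached 1 TPM in KO mice alone. Without cage A, cage C or any KO mouse it was therefore not tested, and those settings could not call it. For cage, 0 were called, 4 with no filter and 0 to 2 with a mouse left out (2 without WT-7, 1 without WT-11). For the interaction, 2 were called, 49 with no filter, 12 with a pseudocount of 0.1, 1 without cage A, 0 without cage C and 0 to 5 with a mouse left out (0 without KO-3, 5 without WT-5). The cause was not tested. No paired analysis was possible because the genotypes share no replicate numbers; the cages, which both genotypes shared, are a term of the reported model. TPM keeps no read depth, so the precision of the low genes, such as Isx and Rarb, is unknown.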
